A study of Mus musculus with 8 samples.

Results

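Genes of the mouse major histocompatibility complex (MHC, named H2 in the mouse) and of the machinery that supplies it with peptides were examined in brown adipose tissue (BAT) of Ox1RΔSERT and control mice. The genes were chosen by a rule on their symbols, with earlier results of these data known. They were every protein-coding gene whose symbol begins with H2-, except the dehydrogenase gene H2-Ke6, and in addition B2m, Tap1, Tap2, Tapbp, Psmb8, Psmb9, Psmb10, Nlrc5, Cd74 and Ciita. Of the 44674 genes in the deposited table, 43 met this rule, of which 24 were class I genes, 11 were class II genes and 8 belonged to the processing and loading of class I. On GRCm38, 38 of the 43 genes lay on chromosome 17, within chr17:33915899-37483552, and the 9 class II genes among them lay within chr17:34092340-34341412.

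Class I molecules are carried by nearly all nucleated cells and present peptides from the cell's own proteins to CD8+ T cells. The proteasome cuts these peptides, the transporter of Tap1 and Tap2 moves them into the endoplasmic reticulum, tapasin (Tapbp) helps to load them, and the light chain β2-microglobulin (B2m) holds the class I heavy chain in shape. Class II molecules are found mainly on macrophages, dendritic cells and B cells and present peptides from material taken up by the cell to CD4+ T cells. The transactivator Ciita switches class II genes on, and Nlrc5, a relative of Ciita, has the same part for class I. In fat, class II is known from macrophages and dendritic cells, among others, and bulk tissue libraries do not show which cells carried it.

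BAT came from 4 control mice (mice 10684, 11253, 11560 and 11563) and 4 Ox1RΔSERT mice (mice 11243, 11601, 11613 and 11708), and values of single mice are given below in this order. The Ox1RΔSERT mice carried Sert-Cre (Slc6a4-Cre), which deletes the loxP-flanked orexin receptor 1 gene in serotonergic neurons and, in the study's reporter mice, was also active in parts of the cingulate cortex and thalamus. The labels name the control mice only as CTRL. By the study's methods, its controls for this line came from the same breeding and carried the loxP-flanked alleles (Ox1R fl/fl) but no Cre, so that both groups share these alleles. All 8 mice were male, received a high-fat diet (HFD) from week 4 to week 18 and were killed by decapitation at the end of a hyperinsulinemic-euglycemic clamp, in which insulin is infused while glucose is given to hold blood glucose steady. The deletion was aimed at neurons, so the BAT libraries hold no check of it.

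Total counts were 35852708 to 50063339 per mouse, and 33.6% to 46.8% of them lay on mitochondrially encoded genes. The libraries were those of BAT, with 2513 to 4895 CPM (counts scaled to the library total, here after TMM scaling) for Ucp1, the uncoupling protein of brown adipocytes. Ox1RΔSERT mice 11601 and 11708 stood apart from the other 6 mice on the first principal component of all tested genes, with scores of 59.3 and 77.0 against -44.3 to 7.13, and results are therefore also given without this pair. No batch is named in the labels. In a bulk tissue sample, fewer cells of a type and less RNA per cell cannot be told apart.

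MHC transcripts were higher on average in Ox1RΔSERT mice, more so for class II than for class I, but no gene passed the adjusted test and the excess came largely from mice 11601 and 11708. Of the 43 genes, 27 had enough counts to be tested (11 of class I, 8 of class II and 8 of processing), and 24 of these 27 had a positive log2 fold change (Ox1RΔSERT over control). The median log2 fold change was 0.97 for class II, 0.48 for class I and 0.39 for processing, against 0.00 over all 14489 tested genes. With edgeR's quasi-likelihood test 0 of the 27 genes had an adjusted p under 0.05, where 0% of all tested genes did, and the adjusted p of the 27 genes ranged from 0.316 to 0.985. At an unadjusted p under 0.05, 8 of 27 were higher in Ox1RΔSERT mice, 6 of them class II genes, against 10.2% of all tested genes, and 1 of 27 was lower, against 4.96%. DESeq2 called 1 gene of the set, Ciita, where it called 1.75% of the genes to which it gave an adjusted p.

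**Figure D1:**
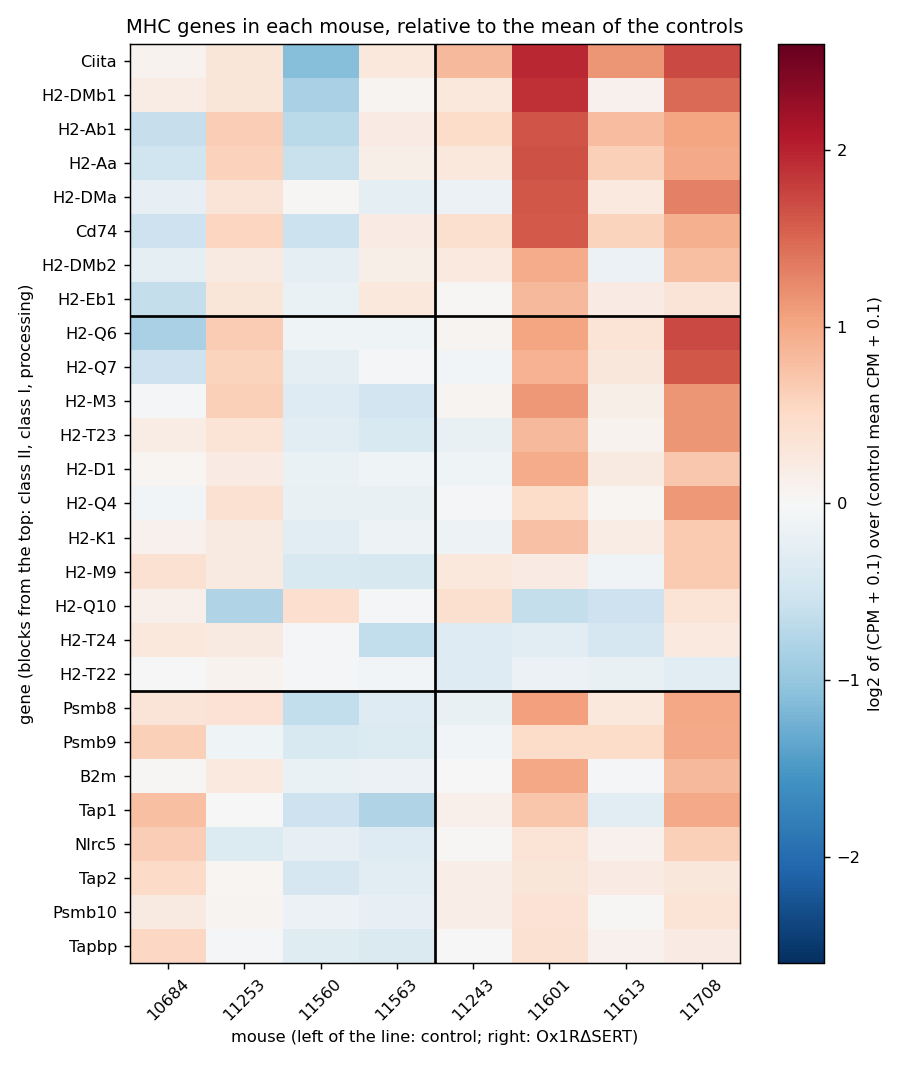
Heat map of the 27 tested genes (rows, class II above class I above processing, each ordered by log2 fold change) in the 8 mice (columns, control mice left of the line), coloured by the log2 ratio of CPM to the mean of the control mice with 0.1 added to both. Mice 11601 and 11708 are the reddest columns, with class II medians of 1.63 and 1.00, and control mouse 10684 is red in the processing block with a median of 0.52 and blue in the class II block with a median of -0.38.

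Per transcript length, in TPM, the light chain B2m was the most abundant gene of the set, with 330 ± 35.2 TPM in control mice and 620 ± 298 TPM in Ox1RΔSERT mice (mean ± SD, n = 4 each). It was followed in control mice by the classical heavy chains H2-D1 (106 TPM) and H2-K1 (83.9 TPM), then by Cd74 (30.4 TPM), H2-Eb1 (25.8 TPM), Tapbp (22.1 TPM), H2-Aa (21.9 TPM), H2-Q10 (21.7 TPM), H2-T22 (21.0 TPM) and H2-Ab1 (14.3 TPM). Ciita, which encodes a regulator and not a surface molecule, had a mean of 0.0427 TPM in control mice. At the other end, 7 class I genes, H2-Q2 and 6 of the H2-M10 genes, had 0 counts in all 8 mice, and H2-M1 and H2-Oa stayed under 3 counts in every mouse. A count of 0 in these libraries still allows 0.0592 to 0.0951 CPM. The 7 genes that reached 3 counts but were not tested are given below as counts.

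Among the chains of the class II molecules, H2-Aa encodes the α chain and H2-Ab1 the β chain of the molecule I-A. H2-Aa was at 21.1, 46.2, 20.3 and 33.7 CPM in the control mice and at 36.8, 95.1, 46.7 and 59.9 CPM in the Ox1RΔSERT mice. H2-Ab1 was at 12.2, 29.2, 11.3 and 21.7 CPM in the control mice and at 26.1, 57.9, 32.6 and 37.9 CPM in the Ox1RΔSERT mice. For both chains 3 of the 4 Ox1RΔSERT mice lay above all control mice, the exception being mouse 11243, and control mice 10684 and 11560 were the lowest. The log2 fold change was 0.98 ± 0.35 (SE) for H2-Aa and 1.05 ± 0.35 for H2-Ab1, and edgeR's adjusted p was 0.316 for each. An exact permutation test of the group means gave p = 0.057 for each chain, where 0.0286 is the smallest p that 4 against 4 mice allow.

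H2-Eb1 encodes the β chain of the second class II molecule, I-E, whose α chain gene is a pseudogene in the reference strain and had 0 counts in all mice. H2-Eb1 was at 23.9, 45.9, 32.7 and 44.1 CPM in the control mice and at 37.5, 65.3, 42.4 and 46.6 CPM in the Ox1RΔSERT mice. The groups overlapped, with only mice 11601 and 11708 above all control mice, and the log2 fold change was 0.39 ± 0.24 (SE) with an adjusted p of 0.434 by edgeR. Its relative H2-Eb2 was near the limit of detection, with 0, 0, 1 and 0 counts in the control mice and 4, 8, 2 and 2 counts in the Ox1RΔSERT mice, and was not tested.

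Ratios between the class II chains need no scaling between mice, because each is taken within a mouse. For H2-Eb1 over H2-Ab1 in TPM, the control mice had ratios of 1.79, 1.43, 2.62 and 1.85 and the Ox1RΔSERT mice ratios of 1.32, 1.03, 1.23 and 1.09, so that all Ox1RΔSERT mice lay below all control mice, mice 11243 and 11613 included. The same order held for the ratio of counts, which was 1.57 to 2.88 in control mice and 1.13 to 1.44 in Ox1RΔSERT mice. The ratio of H2-Aa to H2-Ab1, the paired chains of I-A, was 1.45 to 1.73 TPM per TPM in control mice and 1.32 to 1.54 in Ox1RΔSERT mice, and these ranges overlapped. For H2-Eb1 over H2-Aa the ratio of counts was 0.994 to 1.61 in control mice and 0.687 to 1.02 in Ox1RΔSERT mice, which also overlapped, with mouse 11243 above control mouse 11253. These are among 15 such ratios that were computed, chosen after values of the genes had been seen, and they are given as descriptions with no test.

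Cd74 encodes the invariant chain, which fills the peptide groove of new class II molecules and guides them to endosomes. It was at 34.4, 73.8, 33.9 and 58.2 CPM in the control mice and at 66.7, 150, 75.2 and 95.2 CPM in the Ox1RΔSERT mice, the same order of mice as for H2-Aa and H2-Ab1, with control mouse 11253 above Ox1RΔSERT mouse 11243. The log2 fold change was 0.95 ± 0.33 (SE), with an adjusted p of 0.316 by edgeR and p = 0.057 by the exact permutation test. Relative to the summed class II chains, Cd74 was at 0.499, 0.504, 0.436 and 0.503 TPM per TPM in the control mice and at 0.548, 0.576, 0.512 and 0.543 in the Ox1RΔSERT mice. The groups did not overlap in this ratio, whose means differed by a factor of 1.12. The summed chains include H2-Eb1, which was lower relative to H2-Ab1 in all Ox1RΔSERT mice. The Cd74 ratio is therefore not independent of that one. The log2 fold change of Cd74 (0.95) was near those of H2-Aa (0.98) and H2-Ab1 (1.05) and above that of H2-Eb1 (0.39).

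Ciita (ENSMUSG00000022504, chr16:10480059-10528418, plus strand) had the largest log2 fold change among the 27 tested genes by edgeR, with TMM scaling (1.76) and with total counts (2.01), whereas on log2(TPM + 1), where a gene this low hardly moves, it was 0.19, just under the median of all genes (0.23). It was counted 13, 13, 4 and 19 times in the control mice and 29, 76, 36 and 61 times in the Ox1RΔSERT mice, which is 0.340, 0.412, 0.0903 and 0.399 CPM against 0.633, 1.499, 0.808 and 1.25 CPM. All 4 Ox1RΔSERT mice thus lay above all 4 control mice, as was the case for 2.69% of all tested genes, and with TMM scaling Ciita was the single tested gene of the set for which this held, joined by H2-DMb1 with total counts and with TPM, where 4.54% and 5.59% of all tested genes were separated in this direction. The exact permutation p was 0.029, which is the smallest possible. The log2 fold change was 1.76 ± 0.47 (SE), with an adjusted p of 0.316 by edgeR and 0.0412 by DESeq2. With DESeq2 the call held when mouse 11243 or 11613 was left out (adjusted p 0.00904 and 0.0326) and was lost when any of the other 6 mice was left out (adjusted p 0.0535 to 0.476). Without both 11601 and 11708 the log2 fold change of Ciita was 1.23 ± 0.52 (SE), with an adjusted p of 0.996 by edgeR. Ciita overlaps the gene Dexi on the opposite strand by 329 exonic bases. The libraries were stranded, but the strand setting of the counting is not given in the sources used here.

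H2-DMa and H2-DMb1 encode the chains of H2-DM, which exchanges the invariant chain's remnant for other peptides, and H2-Oa and H2-Ob encode its inhibitor H2-O. H2-DMb1 was at 2.75, 3.01, 1.29 and 2.52 CPM in the control mice and at 2.93, 9.13, 2.58 and 6.79 CPM in the Ox1RΔSERT mice. H2-DMa was at 1.75, 2.6, 2.08 and 1.72 CPM in the control mice and at 1.81, 6.49, 2.45 and 5.22 CPM in the Ox1RΔSERT mice. Here mice 11243 and 11613 lay within the range of the control mice, and mice 11601 and 11708 lay above it. Their log2 fold changes were 1.17 ± 0.45 (SE) for H2-DMb1 and 0.97 ± 0.40 for H2-DMa, with adjusted p of 0.316 and 0.321 by edgeR, and 0.21 and 0.07 without 11601 and 11708. H2-DMb2, a second β chain gene at 0.314 to 0.476 CPM in control mice and 0.337 to 0.848 CPM in Ox1RΔSERT mice, had a log2 fold change of 0.64 ± 0.34. It shares 29.7% of its 31-base words with H2-DMb1, so reads can be split between the pair, and their summed CPM was 3.06, 3.49, 1.60 and 2.96 against 3.41, 9.98, 2.92 and 7.53. H2-Ob had 6, 9, 3 and 11 counts in the control mice and 6, 31, 7 and 25 counts in the Ox1RΔSERT mice and was not tested.

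**Figure D2:**
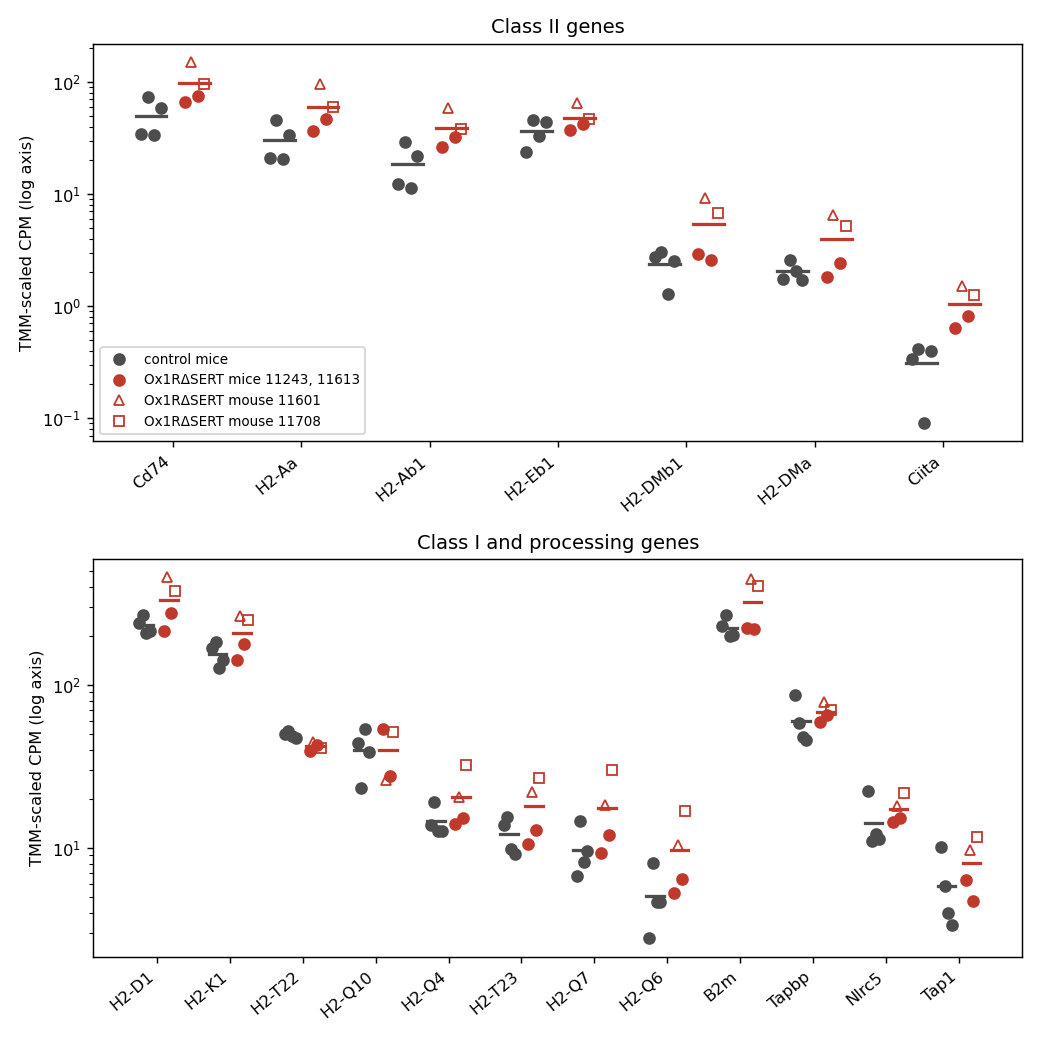
TMM-scaled CPM (log axis) of class II genes (upper panel) and of class I and processing genes (lower panel) in each mouse, with control mice in grey, Ox1RΔSERT mice in red, open symbols for mice 11601 and 11708, and lines at the group means. Ciita is separated between the groups upward (0.633 to 1.499 against 0.0903 to 0.412 CPM) and H2-T22 downward (39.3 to 44.4 against 46.9 to 52.3 CPM, overlapping on TPM), and in the other genes drawn the groups overlap.

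Class II promoters carry an X box and a Y box at a fixed spacing, to which the proteins that recruit Ciita bind. The promoters of H2-Aa and H2-Eb1 are shown because these chains had different fold changes although both are class II chains. RefSeq windows of 300 bases (250 before to 50 after the transcript start, GRCm38.p6) are written 5′ to 3′ on the strand of the gene, at chr17:34287774-34288073 (minus strand) for H2-Aa and chr17:34305617-34305916 (plus strand) for H2-Eb1, with capitals marking the letters ATTGG (Y box, either strand) and AGCAAC (core of the X1 box, either strand).
H2-Aa: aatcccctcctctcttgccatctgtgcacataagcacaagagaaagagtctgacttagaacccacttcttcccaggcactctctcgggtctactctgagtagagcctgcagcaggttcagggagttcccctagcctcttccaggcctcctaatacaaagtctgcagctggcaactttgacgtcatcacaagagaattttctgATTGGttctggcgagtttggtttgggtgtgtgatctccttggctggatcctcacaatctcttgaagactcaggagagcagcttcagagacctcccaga
H2-Eb1: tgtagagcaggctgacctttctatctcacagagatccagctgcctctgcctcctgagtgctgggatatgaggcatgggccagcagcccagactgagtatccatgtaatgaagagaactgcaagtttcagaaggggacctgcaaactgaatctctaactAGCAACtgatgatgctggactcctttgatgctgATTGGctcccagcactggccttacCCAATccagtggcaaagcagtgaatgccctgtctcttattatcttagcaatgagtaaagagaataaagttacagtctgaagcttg
The H2-Eb1 window held the X1 letters at -92 and the Y box letters first at -59, and the H2-Aa window held the Y box letters at -48 but no exact match to the X1 letters. Upstream of its Y box letters the H2-Aa window held the similar letters ggcaac. Only the exact AGCAAC was searched, so the lack of a match does not show that an X box is absent. The Y box letters occurred in 8 of 9 class II windows (88.9%), in 21 of 24 class I windows (87.5%) and in 37.4% of all 32851 promoter windows of that length. The X1 letters occurred in 4 of 9 class II windows (44.4%), in 2 of 24 class I windows and in 14.8% of all windows. A match is only a description of the sequence, and 36 of the 43 genes, with 39 windows, were found in the promoter table.

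H2-D1 and H2-K1 encode the classical class I heavy chains. H2-D1 was at 241, 268, 207 and 215 CPM in the control mice and at 215, 457, 275 and 379 CPM in the Ox1RΔSERT mice. H2-K1 was at 168, 183, 127 and 142 CPM in the control mice and at 142, 263, 178 and 249.1 CPM in the Ox1RΔSERT mice. Mice 11601 and 11708 were the highest for both chains, whereas mouse 11243 lay within the range of the control mice. The log2 fold change was 0.51 ± 0.22 (SE) for H2-D1 and 0.42 ± 0.21 for H2-K1, with adjusted p of 0.328 and 0.363 by edgeR and exact permutation p of 0.114 and 0.200, and without 11601 and 11708 it was 0.08 ± 0.14 and 0.05 ± 0.17. The ratio of H2-D1 to H2-K1 in TPM was 1.19 to 1.39 in control mice and 1.27 to 1.45 in Ox1RΔSERT mice, and these ranges overlapped. Of the 31-base words of H2-D1, 13.8% are shared with H2-K1, and part of their reads was therefore divided by Salmon's model.

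Class I promoters are known for a kappa B site upstream of an interferon response element. The windows of H2-K1, H2-D1, H2-Q7 and H2-Q10 are shown because the first 3 belong to chains with a positive log2 fold change, and H2-Q10, a close relative of H2-Q7 with 21.9% of its 31-base words in common, had none. They are RefSeq windows of 300 bases on GRCm38.p6, 5′ to 3′ on the strand of the gene, at chr17:34000298-34000597 (minus strand), chr17:35262844-35263143, chr17:35438905-35439204 and chr17:35469839-35470138 (plus strand), with capitals for GGGATTCCC (kappa B) and ATTGG, each on either strand.
H2-K1: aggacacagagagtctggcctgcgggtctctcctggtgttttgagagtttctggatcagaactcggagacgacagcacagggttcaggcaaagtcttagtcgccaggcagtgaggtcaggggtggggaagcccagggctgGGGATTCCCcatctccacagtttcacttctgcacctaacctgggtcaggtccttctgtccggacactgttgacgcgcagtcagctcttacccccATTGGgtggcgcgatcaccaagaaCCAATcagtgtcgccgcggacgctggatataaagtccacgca
H2-D1: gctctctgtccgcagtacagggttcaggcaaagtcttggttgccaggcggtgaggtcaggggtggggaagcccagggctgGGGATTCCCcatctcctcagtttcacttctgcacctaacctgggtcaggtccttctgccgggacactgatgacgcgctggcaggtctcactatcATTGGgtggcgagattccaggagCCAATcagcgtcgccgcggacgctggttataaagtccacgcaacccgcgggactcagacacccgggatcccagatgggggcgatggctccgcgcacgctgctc
H2-Q7: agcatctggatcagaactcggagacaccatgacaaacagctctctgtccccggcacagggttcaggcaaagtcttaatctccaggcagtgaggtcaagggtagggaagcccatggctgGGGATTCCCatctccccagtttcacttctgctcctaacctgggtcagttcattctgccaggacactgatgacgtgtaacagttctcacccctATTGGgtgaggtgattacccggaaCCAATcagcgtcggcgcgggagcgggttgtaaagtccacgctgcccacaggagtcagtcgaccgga
H2-Q10: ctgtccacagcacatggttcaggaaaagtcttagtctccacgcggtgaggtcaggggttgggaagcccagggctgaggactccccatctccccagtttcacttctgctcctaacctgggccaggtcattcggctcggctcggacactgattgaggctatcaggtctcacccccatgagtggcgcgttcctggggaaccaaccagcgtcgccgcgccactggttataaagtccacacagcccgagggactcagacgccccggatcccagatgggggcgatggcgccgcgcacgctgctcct
GGGATTCCC occurred at -110 in H2-K1, -170 in H2-D1 and -132 in H2-Q7, and neither it nor ATTGG occurred in the H2-Q10 window, which has no capitals. Over the set, GGGATTCCC was in 5 of 24 class I windows (20.8%), those of H2-K1 (in both of its windows), H2-D1, H2-Q6 and H2-Q7, in 0 of 9 class II windows and in 0.353% of all windows. The windows of these class I genes are related in sequence, so the matches are not independent. H2-Q4, with a log2 fold change of 0.48, had no GGGATTCCC in its window but held gggatttccc, which differs by an added t. Only the exact GGGATTCCC was searched, so these shares do not say how many windows hold a kappa B site in another spelling.

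Among the other class I genes, H2-Q6 and H2-Q7 encode the Qa-2 antigen and had the largest log2 fold changes of class I, 0.95 ± 0.42 (SE) and 0.84 ± 0.38, with adjusted p of 0.329 and 0.336 by edgeR. H2-Q7 was at 6.70, 14.6, 8.15 and 9.52 CPM in the control mice and at 9.30, 18.4, 12.03 and 29.9 CPM in the Ox1RΔSERT mice. H2-Q6 was at 2.77, 8.05, 4.65 and 4.65 CPM in the control mice and at 5.28, 10.4, 6.44 and 16.7 CPM in the Ox1RΔSERT mice. In both genes mouse 11708 was the highest and control mouse 11253 exceeded mice 11243 and 11613. Without mouse 11708 alone the log2 fold change was 0.55 for H2-Q6, 0.45 for H2-Q7 and 0.18 for H2-Q4, and without 11601 as well it was 0.23, 0.14 and 0.01. The pseudogene H2-Q5, which shares 15.5% of the words of H2-Q7, was at 0.790 to 2.28 CPM in control mice and 1.07 to 6.19 CPM in Ox1RΔSERT mice. H2-Q4 had a log2 fold change of 0.48 ± 0.27, with 12.7 to 19.2 CPM in control mice and 14.0 to 32.0 CPM in Ox1RΔSERT mice. Because 38.4% to 49.8% of the words of H2-Q4, H2-Q6 and H2-Q7 occur in other genes, the level of each is less certain than that of the sum of the 3, which was 9.26 to 14.8 TPM in control mice and 10.4, 29.5, 15.0 and 40.8 TPM in Ox1RΔSERT mice.

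H2-T23 encodes Qa-1, a ligand of NK cell receptors, and H2-M3 presents peptides that begin with formyl-methionine. H2-T23 was at 13.9, 15.5, 9.82 and 9.14 CPM in the control mice and at 10.5, 21.9, 12.9 and 26.9 CPM in the Ox1RΔSERT mice, with a log2 fold change of 0.58 ± 0.31 (SE) that was -0.04 without mice 11601 and 11708. H2-M3 was at 0.904 to 2.06 CPM in control mice and at 1.38, 2.98, 1.46 and 3.003 CPM in Ox1RΔSERT mice, with a log2 fold change of 0.76 ± 0.37 that was 0.13 without the pair. H2-M9 (0.462 to 0.889 CPM in control mice) had a log2 fold change of 0.34 ± 0.31, and H2-T24 (2.77 to 5.28 CPM) one of -0.17 ± 0.25 that turned positive with total counts or TPM. H2-M5 had 1 to 7 counts in control mice and 1 to 8 in Ox1RΔSERT mice, H2-M2 had 0 to 2 and 1 to 4, H2-T3 and H2-M11 had each at most 1 and at most 3, and H2-Q1 had 0 in all control mice and 0, 2, 0 and 4 in the Ox1RΔSERT mice. These 5 genes were not tested.

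H2-Q10 encodes a secreted class I molecule made mainly by the liver. It was at 44.0, 23.3, 53.9 and 38.7 CPM in the control mice and at 53.4, 26.0, 27.5 and 51.3 CPM in the Ox1RΔSERT mice, with a log2 fold change of -0.02 ± 0.31 (SE) and an adjusted p of 0.985 by edgeR. The groups overlapped, and mouse 11601, the highest for H2-D1, was the second lowest of the 8. Hepatocyte markers, 8 of 8 of them with a positive log2 fold change, summed to 3.17 to 43.7 CPM in control mice and to 26.1, 69.1, 8.91 and 1030 CPM in Ox1RΔSERT mice. Mouse 11708, with the highest sum, was at 51.3 CPM of H2-Q10 against 53.9 CPM in control mouse 11560, whereas on TPM it was the highest of the 8 mice, with 37.0 against 29.5 TPM. The log2 fold change of H2-Q10 changed sign in 8 of 20 settings. The part of hepatocyte RNA in H2-Q10 was not tested.

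H2-T22, a class I-like molecule that binds no peptide and is a ligand of γδ T cells, was the one gene of the set with all Ox1RΔSERT mice below all control mice, as were 2.81% of all tested genes. It was at 49.7, 52.3, 48.3 and 46.9 CPM in the control mice and at 39.3, 44.4, 43.0 and 40.7 CPM in the Ox1RΔSERT mice. The log2 fold change was -0.24 ± 0.07 (SE), with an adjusted p of 0.316 by edgeR and 0.112 by DESeq2, and the exact permutation p was 0.029. Mice 11601 and 11708 did not stand apart here, and without them the log2 fold change was -0.26 ± 0.09. The direction depends on the scaling: with total counts the log2 fold change was -0.01 and on log2(TPM + 1) it was 0.08, while the median of all genes moved to 0.22 and 0.23, so that relative to this median H2-T22 stayed lower by all 3 scalings (-0.24, -0.23 and -0.15). On TPM the groups overlapped, with 20.5 to 22.02 TPM in control mice and 16.5 to 27.3 TPM in Ox1RΔSERT mice. H2-T22 shares 47.2% of its 31-base words with the pseudogene H2-T10, which was at 0.336 to 0.634 CPM in control mice and 0.262 to 1.07 CPM in Ox1RΔSERT mice, and the summed CPM of the pair was 47.3 to 53.0 against 39.5 to 45.3. It also overlaps A930015D03Rik on the opposite strand by 1003 exonic bases.

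B2m, the light chain of all class I molecules, was at 228, 267, 198 and 202 CPM in the control mice and at 222, 447, 219 and 404 CPM in the Ox1RΔSERT mice. Mice 11243 and 11613 lay inside the range of the control mice, and mice 11601 and 11708 far above it. B2m had a log2 fold change of 0.53 ± 0.25 (SE), with an adjusted p of 0.350 by edgeR, and -0.01 ± 0.13 without 11601 and 11708. The ratio of B2m to the summed class I heavy chains except H2-Q10, in TPM, was 1.42 to 1.46 in control mice, and the Ox1RΔSERT mice had ratios of 1.51, 1.61, 1.36 and 1.52, of which 3 lay above the control mice and 1 below. The promoter of B2m (RefSeq, GRCm38.p6, chr2:122147437-122147736, plus strand) is shown because it holds the interferon-stimulated element core GAAANNGAA, at -139, which 2 of 24 class I windows and 8.56% of all windows also hold, those of class I being H2-T23 and H2-T22. Only this exact pattern was searched, so these shares do not say how many windows hold an interferon response element in another spelling. The windows of H2-K1, H2-D1, H2-Q7 and H2-Q10 above all hold the letters agtttcacttct, which the pattern cannot match on either strand. Capitals mark GAAANNGAA and ATTGG.
B2m: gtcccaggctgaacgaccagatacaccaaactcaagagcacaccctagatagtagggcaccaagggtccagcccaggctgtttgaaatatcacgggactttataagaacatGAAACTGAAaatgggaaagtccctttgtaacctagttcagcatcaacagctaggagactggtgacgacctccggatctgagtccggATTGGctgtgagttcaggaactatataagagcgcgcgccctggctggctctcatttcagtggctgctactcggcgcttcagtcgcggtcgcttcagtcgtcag

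Among the 8 genes of processing and loading, control mouse 10684 was the highest control mouse for 6, the exceptions being B2m and Psmb8, where it was mouse 11253, and the highest of all mice for 3. Nlrc5, the class I transactivator, was at 22.3, 11.0, 12.2 and 11.3 CPM in the control mice and at 14.5, 18.1, 15.2 and 21.8 CPM in the Ox1RΔSERT mice. All 4 Ox1RΔSERT mice exceeded 3 of the control mice, and control mouse 10684 exceeded all of them. Tapbp was at 86.4, 58.4, 47.9 and 46.1 CPM in the control mice and at 59.3, 78.6, 64.9 and 69.7 CPM in the Ox1RΔSERT mice, again with mouse 10684 the highest of the 8 and the other control mice below all Ox1RΔSERT mice. The same held for Tap2, at 20.7, 15.1, 10.7 and 11.8 CPM in the control mice and 16.5, 18.0, 16.9 and 17.8 CPM in the Ox1RΔSERT mice. Log2 fold changes were 0.29 ± 0.25 (SE) for Nlrc5, 0.19 ± 0.20 for Tapbp and 0.25 ± 0.19 for Tap2, with adjusted p of 0.567, 0.652 and 0.536 by edgeR. Without mouse 10684 they were 0.59, 0.42 and 0.46, with an adjusted p of 0.306 for each by edgeR. Of these genes DESeq2 called Nlrc5 without this mouse (adjusted p 0.033), in a comparison added after seeing the data that called 373 genes, or 2.64%.

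Tap1 and Psmb9 are a divergent gene pair that overlap by 212 exonic bases on opposite strands. Tap1 was at 10.1, 5.80, 4.00 and 3.34 CPM in the control mice and at 6.38, 9.63, 4.71 and 11.7 CPM in the Ox1RΔSERT mice, with a log2 fold change of 0.48 ± 0.40 (SE). Psmb9 was at 3.66, 2.16, 1.76 and 1.83 CPM in the control mice and at 2.25, 3.31, 3.32 and 4.77 CPM in the Ox1RΔSERT mice, with 0.54 ± 0.31. In both genes mouse 11708 was the highest and control mouse 10684 the second. Psmb9, Psmb8 and Psmb10 are the inducible catalytic subunits of the immunoproteasome, in which they replace Psmb6, Psmb5 and Psmb7. Psmb8 was at 6.70, 6.94, 3.34 and 4.20 CPM in the control mice and at 4.65, 11.3, 6.47 and 10.8 CPM in the Ox1RΔSERT mice (log2 fold change 0.65 ± 0.34), and Psmb10 was at 6.58 to 8.997 and 7.72 to 9.86 CPM (0.24 ± 0.14).

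Within each mouse, the inducible subunits stayed far below the constitutive ones. Psmb8 amounted to 4.83%, 4.73%, 2.83% and 2.82% of Psmb5 in TPM in the control mice and to 3.40%, 10.2%, 4.74% and 10.2% in the Ox1RΔSERT mice. Psmb9 amounted to 1.43% to 3.05% of Psmb6 in control mice and 2.003% to 4.66% in Ox1RΔSERT mice, and Psmb10 to 6.11% to 7.55% and 6.54% to 11.6% of Psmb7. All 3 shares overlapped between the groups, with mice 11601 and 11708 the highest in each. The constitutive subunits themselves had log2 fold changes below 0 in 3 of 3 cases, with a median of -0.19 and 0 at an unadjusted p under 0.05.

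**Figure D3:**
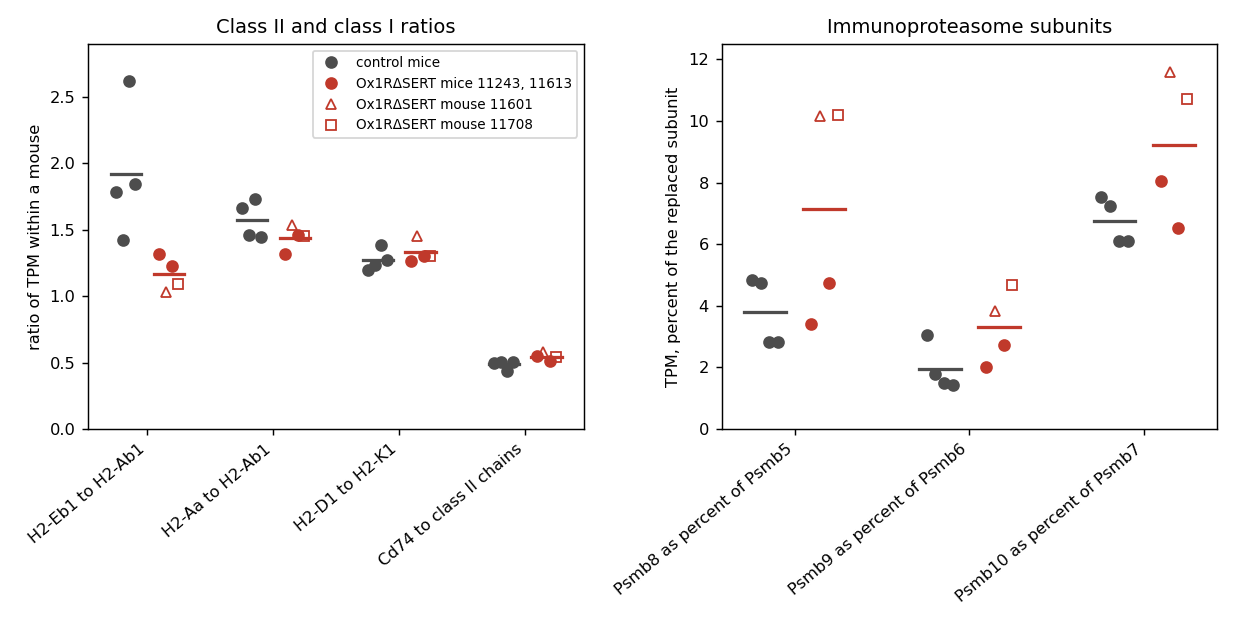
Ratios of TPM within a mouse, with control mice in grey, Ox1RΔSERT mice in red, open symbols for mice 11601 and 11708, and lines at the group means. In the left panel H2-Eb1 to H2-Ab1 is lower in all Ox1RΔSERT mice (1.03 to 1.32 against 1.43 to 2.62). Cd74 to the class II chains, a sum that includes H2-Eb1, is higher in all of them (0.512 to 0.576 against 0.436 to 0.504). In the right panel the immunoproteasome subunits reach at most 11.6% of the subunit they replace.

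Without mice 11601 and 11708, little of the difference in class I and processing was left, and part of that in class II was. The median log2 fold change was then 0.05 for class I, 0.07 for processing and 0.34 for class II, and 22 of the 27 genes were above 0, among them H2-Q10, which was just below 0 with all mice. The largest values that were left belonged to Ciita (1.23), H2-Ab1 (0.67 ± 0.37 SE), Cd74 (0.51 ± 0.31) and H2-Aa (0.47 ± 0.33), and edgeR's adjusted p was 0.996 for each of these 4 genes. Mice 11601 and 11708 were the highest 2 of the 8 mice for 18 of the 27 genes, 8 of 8 in class II, 7 of 11 in class I and 3 of 8 in processing, and for 20.1% of all tested genes. Mouse 11601 was the highest for all 8 tested class II genes, whereas mouse 11708 was the highest for 6 of the 11 class I genes.

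**Figure D4:**
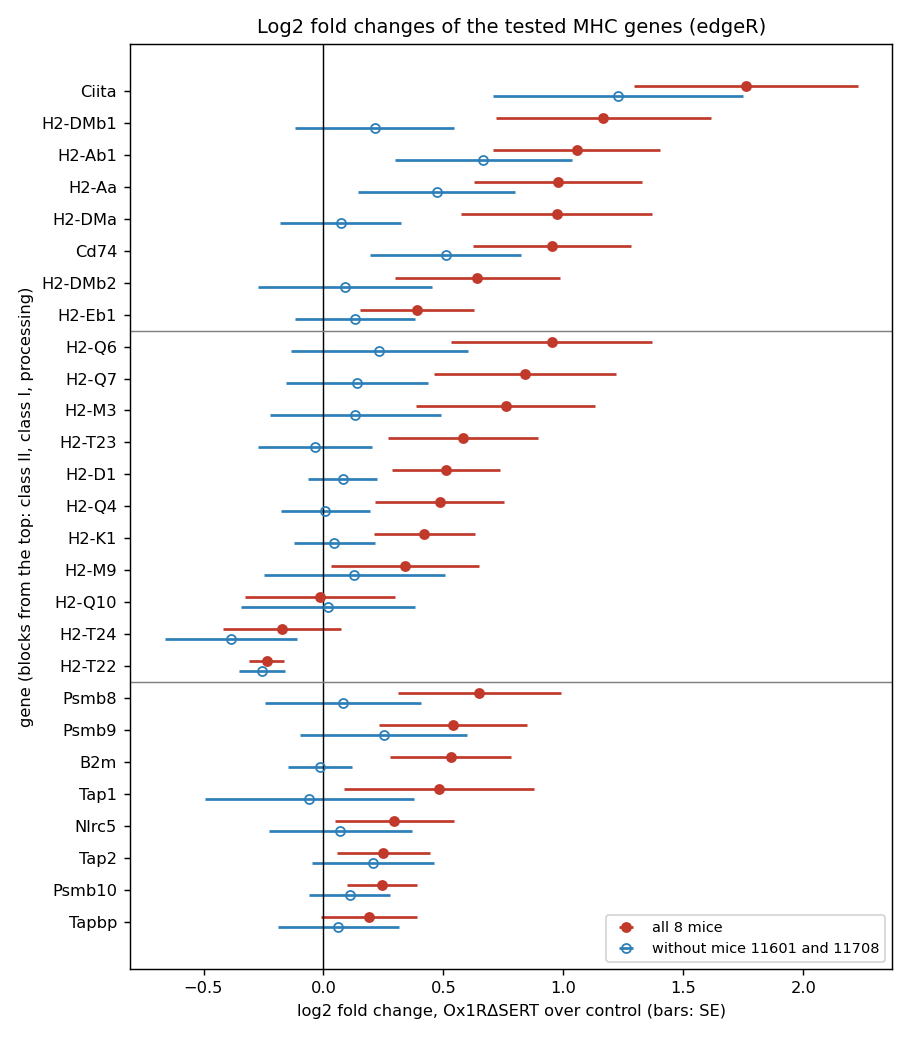
Log2 fold change (Ox1RΔSERT over control) of the 27 tested genes by edgeR, with bars for the SE, from all 8 mice (filled) and without mice 11601 and 11708 (open). The class II block has the largest filled values, up to 1.76 for Ciita, and the class I and processing blocks close in on 0 in the open symbols, with medians of 0.05 and 0.07.

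Macrophage markers, pan leukocyte markers and most dendritic cell markers had higher means in Ox1RΔSERT mice, and B cell markers did not. All 4 pan leukocyte markers (Ptprc, Laptm5, Coro1a and Cd53) had a positive log2 fold change (median 1.62). They summed to 19.2 to 34.8 CPM in control mice and 29.8, 132, 35.3 and 122 CPM in Ox1RΔSERT mice. Of 10 macrophage markers, 10 had a positive log2 fold change (median 1.38), and their summed level was 148 to 318 CPM in control mice and 216, 1022, 242 and 775 CPM in Ox1RΔSERT mice. Of the tested dendritic cell markers 6 of 7 were positive, and the list summed to 11.0 to 14.6 CPM in control mice and 16.0, 24.0, 15.1 and 23.1 CPM in Ox1RΔSERT mice, without overlap. By group means the largest part of this sum was Zbtb46, at 9.42 and 10.1 CPM (log2 fold change 0.10). Mouse 11243 had the highest Zbtb46 of the 8 mice (11.7 CPM), and the separation of the sum depended on this gene. For each of the 7 tested markers taken singly the groups overlapped. The group means of Itgax, at 1.21 and 5.47 CPM, differed most in the list, and Xcr1 was negative (-0.18). B cell markers summed to 0.158 to 1.05 CPM in control mice and 0.404 to 0.679 CPM in Ox1RΔSERT mice, with Cr2 at 0 in 2 control mice and 3 Ox1RΔSERT mice, and T cell markers to 0.546 to 1.20 and 0.939 to 2.74 CPM. NK cell markers stayed under 1 CPM in sum in every mouse, neutrophil markers summed to 3.47 to 21.7 and 11.1 to 34.2 CPM, and skeletal muscle markers were high in 1 mouse of each group, control mouse 11253 (1378 CPM) and Ox1RΔSERT mouse 11708 (1993 CPM). The part of these cells in the MHC values was not tested. Set against the macrophage list, H2-D1 and H2-K1 together were at a ratio of 1.42 to 2.26 in control mice and 1.65, 0.704, 1.87 and 0.810 in Ox1RΔSERT mice, and the class II chains with Cd74 were at 0.422 to 0.846 and 0.772, 0.361, 0.814 and 0.309. In mice 11601 and 11708 both ratios lay below those of all control mice. The largest part of the macrophage sum in these mice was Lyz2 (506 and 348 CPM), and the markers differed widely. The ratio of group means was 1.23 for Mertk and 6.04 for Fcgr1, so the sum does not measure macrophage RNA as a whole. Against the dendritic cell list the class II chains with Cd74 were at 8.22 to 13.3 in control mice and 10.4 to 15.4 in Ox1RΔSERT mice. Against the pan leukocyte list they were at 3.44 to 6.54 and at 5.61, 2.79, 5.58 and 1.96, which overlapped. H2-D1 and H2-K1 together were at 12.95 to 17.4 and at 11.97, 5.44, 12.81 and 5.14 against that list, without overlap but with mouse 11613 close to the lowest control mouse. Brown adipocyte markers, 7 of 7 with a negative log2 fold change, summed to 12814 to 14104 CPM in control mice and 12227, 9184, 11744 and 8474 CPM in Ox1RΔSERT mice, and endothelial markers overlapped (264 to 359 and 246 to 331 CPM).

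**Figure D5:**
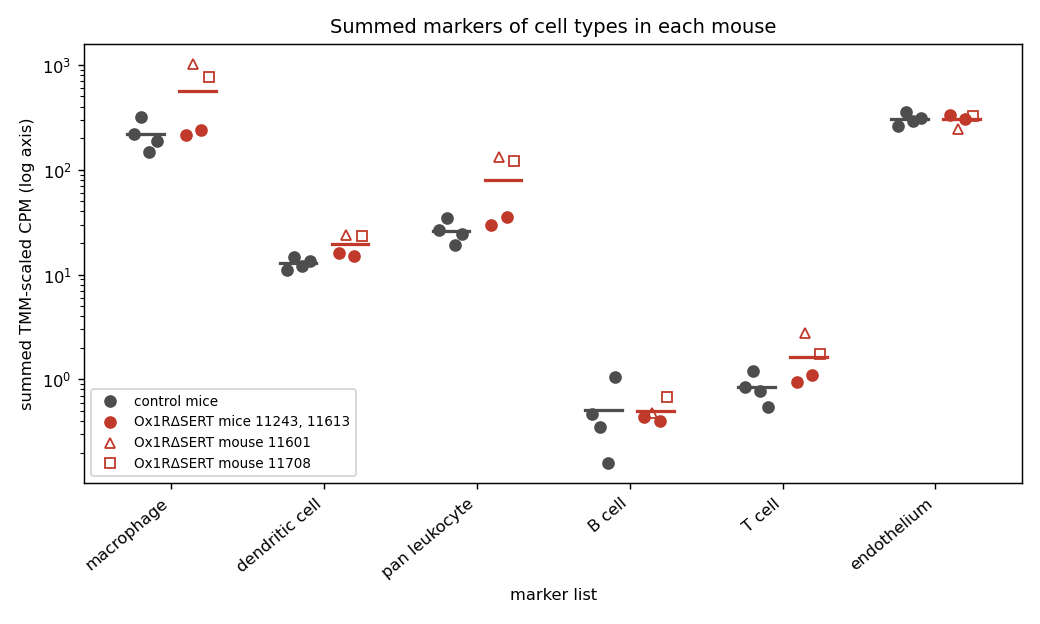
Summed TMM-scaled CPM (log axis) of marker lists for 6 cell types in each mouse, with control mice in grey, Ox1RΔSERT mice in red, open symbols for mice 11601 and 11708, and lines at the group means. Macrophage markers reach 1022 and 775 CPM in mice 11601 and 11708 against at most 318 CPM in control mice, and B cell and endothelial markers overlap between the groups.

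Other genes of the same pathways were read from the same fit, and 0 of them had an adjusted p under 0.05 by edgeR. DESeq2 called Cd80, where it called 1.75% of the genes to which it gave an adjusted p. Of the 7 genes of class I loading in the endoplasmic reticulum and of the proteasome activator, such as calreticulin (Calr) and Erap1, 4 were positive and 3 negative, with a median log2 fold change of 0.01 and 0 at an unadjusted p under 0.05. Where 10.2% of all tested genes were higher at an unadjusted p under 0.05 by edgeR, 4 of the 6 genes of class II handling were, and 5 were positive. They include cathepsin S (Ctss), which cuts the invariant chain, at 15.0, 27.3, 9.53 and 14.3 CPM in the control mice and 20.0, 148, 22.6 and 132 CPM in the Ox1RΔSERT mice. The co-stimulatory Cd80, Cd86 and Cd40 were all 3 positive (median 1.13), the 4 class I-like genes that present lipids or metabolites or carry other ligands had a median of 0.02, and the 7 factors that bind class II promoters, such as Rfx5, had a median of 0.07 with 0 at an unadjusted p under 0.05. Of 6 class I-like genes with Gm symbols 2 were tested, with a median of -0.03.

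Of the 13 genes on the route from interferon to MHC genes 12 were tested. Of these 11 were positive, against 50.4% of all tested genes, with a median log2 fold change of 0.25. At an unadjusted p under 0.05 by edgeR 5 were higher, against 10.2% of all tested genes. Interferon gamma itself (Ifng) stayed under 3 counts in every mouse. Control mouse 10684 was the highest of all 8 mice in the interferon regulatory factors Irf1 (19.1 CPM) and Irf9 (22.6 CPM), as it was in Nlrc5, Tapbp and Tap2. Over the 12 tested route genes, however, it was the highest mouse for 3 and the lowest for 3. Mouse 11708 was the highest for 4 and mouse 11601 for 3. The median log2 ratio of these genes to the control mean was 0.18 in mouse 10684 and 0.40 in each of 11601 and 11708. In the sum of the class II chains and Cd74 mouse 10684 was the lowest of the control mice, with 65.2 TPM against 68.8, 112 and 123 TPM. For H2-Aa, H2-Ab1 and Cd74 taken singly, control mouse 11560 was lower still. High values of the class I transactivator, transporter and tapasin in mouse 10684 were therefore not accompanied by high class II values, whereas in mouse 11601 both were high. Whether the interferon route had a part in this was not tested.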

How the data were processed

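RNA of BAT from 4 control and 4 Ox1RΔSERT mice was sequenced from stranded, poly-A-selected libraries. The authors mapped and quantified the reads on GRCm38.p6 with an nf-core pipeline, using STAR and Salmon (0.14.1), and tested genes with DESeq2 (1.26.0). The deposited values used here are estimated counts per gene from Salmon and the TPM deposited beside them, which are scaled for transcript length and to the same total in each mouse. Salmon divides reads shared by similar genes by a model, which bears on the class I family.

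Estimated counts were rounded, filtered with filterByExpr, scaled by TMM and compared with edgeR's quasi-likelihood test (4.0.16, R 4.3.3) over all genes, with Benjamini-Hochberg adjustment, no covariates and a threshold of 0.05. The edgeR procedure was tested on simulated data. SEs are the log2 fold change divided by the square root of F. Single genes were also compared by an exact two-sided permutation test over the 70 assignments of mice to groups. Alternatives were DESeq2 (1.42.0), other scalings, filters and variance models, limma (3.58.1) on log2(TPM + 1) and log2(TPM + 0.1), and leaving out mice. Shared sequence is the share of a gene's 31-base words found in other genes. All genes of the set with 3 or more counts in a mouse are named, by role. The set and all lists were chosen with earlier results of these data known, and the ratios after values of the genes had been seen. The labels do not say whether mice shared a cage or litter, or name a batch. The p-values set the difference between the groups against the spread between these mice. Values of a mouse at 3 counts or fewer rest on counting error alone.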

Additional observations from a re-analysis of the deposited data

Results flagged for a closer look

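In each group of 4 mice the highest and lowest values of the 27 tested genes were compared with the rest of their group, and in 2 of 54 such groups 1 mouse lay far from the others. Chance alone flags about 1 in 20 groups. H2-Q4 was at 19.2 CPM in control mouse 11253, against 12.7 to 13.8 CPM in the other control mice. Nlrc5 was at 22.3 CPM in control mouse 10684, against 11.0 to 12.2 CPM in the other control mice. Without mouse 10684 the log2 fold change of Nlrc5 was 0.59 in place of 0.29, with an adjusted p of 0.306 by edgeR.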

How the results depend on the processing

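edgeR and limma called 0 of all genes in every setting tried, with 1482 genes higher and 719 lower at an unadjusted p under 0.05 in the fit reported. DESeq2 called 266 genes, with Ciita the 1 gene of the set among them (log2 fold change 1.76). Leaving out mice with DESeq2 was added after seeing the data, and percentages are of the genes given an adjusted p. It gave 373 genes (2.64%) without control mouse 10684 (of the set 1, Nlrc5) and 243 (1.56%) without 11253 (3: Cd74, H2-Aa and H2-Ab1). It gave 49 (0.298%) without 11563 and 17 (0.110%) without 11560, with 0 of the set in each. Without Ox1RΔSERT mouse 11243 it gave 1513 (9.37%, of the set 10). Without 11613 it gave 931 (5.96%, of the set 3: Cd74, Ciita and H2-DMb1). It gave 18 (0.113%) without 11708, 17 (0.0850%) without 11601 and 9 (0.0467%) without both 11601 and 11708, with 0 of the set in each. Which genes of the set DESeq2 called therefore depended on the mice included. The median log2 fold change was 0.32 to 0.61 for class I, 0.66 to 1.20 for class II and 0.23 to 0.56 for processing with single mice left out, and without both 11601 and 11708 it was 0.046 for class I and 0.34 for class II. On log2(TPM + 0.1) the processing median was 0.74, where the median of all genes was 0.32. Of the 27 tested genes, 21 kept their sign in every planned setting that gave them a value, 20 for each gene but Ciita, which has 19 because it was filtered out with at least 10 counts in every mouse. No paired analysis was possible because the labels give no number that pairs mice. The cause of these differences was not tested.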
